A study of Mus musculus with 17 samples.

Results

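Axon guidance ligands and receptors were followed through the tumors of TH-MYCN mice, a transgenic model of neuroblastoma, the childhood tumor of the sympathetic nervous system. The members were 69 of the 18194 genes measured. They were taken by symbol from the platform annotation: the semaphorins (20 genes), the plexins (10), the neuropilins (2), the Eph receptors (13), the ephrins (8), Slit1 to Slit3 (3), Robo1 to Robo4 (4), the netrins (4), and Dcc with the Unc5 genes (5). A gene named only by a probe set that carries several symbols was not measured here. Of the members, 68 were protein coding and 1, Plxna4os1, is an antisense transcript of Plxna4 that the plexin symbol brought in.

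The series holds 17 primary tumors, 1 array each, and all of them have the genotype TH-MYCN and belong to a single group, so there was no control tissue and no comparison between conditions. The transgene places MYCN under the tyrosine hydroxylase promoter, which is active in sympathetic precursors and in other cells that make catecholamines. By the study's methods the mice were hemizygous for the transgene on an inbred mouse background, and the tumors were abdominal and fully grown. The study describes more tumors than the 17 here, from females and males that differed in age by some weeks. The labels give no age, sex or weight for a tumor, so none of these was used below. Each tumor is named by its label, mad548 to mad565, and p-values below belong to slopes and correlations across these 17 tumors.

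Semaphorins, ephrins, Slits and netrins are cues that turn, stop or attract growing axons and migrating neural crest cells. Semaphorins signal through plexins, the secreted class 3 semaphorins with neuropilins as co-receptors, ephrins through Eph receptor tyrosine kinases, Slits through Robo receptors, and netrins through Dcc and the Unc5 receptors. In the embryo these families help to route sympathetic precursors from the neural tube to the ganglia and the adrenal, and many members also act in blood vessels.

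Promoter sequence, the 250 bases before an annotated start in the RefSeq table of mouse build GRCm38.p6, was available for 58 of the 69 members, with 74 starts in all. Shown are members of high signal in the tumors (Slit2, Nrp1, Nrp2, Sema6d) and members that differed widely between them (Epha5, Unc5c), read 5′ to 3′ on the strand of the gene. Capitals mark motifs searched on both strands. They are the GC box, spelled as GGGCGG (read as CCGCCC when it lies on the other strand), the E-box, a motif bound by MYC family proteins and spelled as CACGTG, and the TATA box, spelled as TATAAA.
Slit2 chr5:47982905-47983154 (+): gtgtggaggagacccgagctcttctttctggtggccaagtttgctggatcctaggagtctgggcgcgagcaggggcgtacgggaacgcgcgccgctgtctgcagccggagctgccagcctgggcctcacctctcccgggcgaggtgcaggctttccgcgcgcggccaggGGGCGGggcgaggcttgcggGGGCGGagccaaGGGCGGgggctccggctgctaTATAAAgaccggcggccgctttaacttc
Nrp1 chr8:128358823-128359072 (+): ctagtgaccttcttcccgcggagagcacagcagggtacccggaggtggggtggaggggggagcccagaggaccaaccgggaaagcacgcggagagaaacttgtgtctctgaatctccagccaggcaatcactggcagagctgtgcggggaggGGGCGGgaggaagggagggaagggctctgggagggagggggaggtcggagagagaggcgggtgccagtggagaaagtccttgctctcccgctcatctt
Nrp2 chr1:62703067-62703316 (+): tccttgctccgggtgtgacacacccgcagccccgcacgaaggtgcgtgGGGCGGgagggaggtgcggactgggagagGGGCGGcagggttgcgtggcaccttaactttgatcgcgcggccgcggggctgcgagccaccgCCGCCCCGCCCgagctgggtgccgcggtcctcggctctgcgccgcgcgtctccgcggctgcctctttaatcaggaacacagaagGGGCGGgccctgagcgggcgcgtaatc
Sema6d chr2:124089719-124089968 (+): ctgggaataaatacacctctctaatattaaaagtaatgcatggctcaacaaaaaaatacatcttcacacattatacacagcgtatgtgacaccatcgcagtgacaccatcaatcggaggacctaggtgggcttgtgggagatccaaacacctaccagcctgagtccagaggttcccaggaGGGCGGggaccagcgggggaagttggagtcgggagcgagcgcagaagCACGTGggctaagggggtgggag
Epha5 chr5:84417383-84417632 (-): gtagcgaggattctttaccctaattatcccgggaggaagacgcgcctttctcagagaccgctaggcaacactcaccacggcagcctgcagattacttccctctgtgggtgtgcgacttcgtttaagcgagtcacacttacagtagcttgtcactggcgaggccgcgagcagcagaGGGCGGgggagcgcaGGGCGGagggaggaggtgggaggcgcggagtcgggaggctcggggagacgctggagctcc
Unc5c chr3:141465314-141465563 (+): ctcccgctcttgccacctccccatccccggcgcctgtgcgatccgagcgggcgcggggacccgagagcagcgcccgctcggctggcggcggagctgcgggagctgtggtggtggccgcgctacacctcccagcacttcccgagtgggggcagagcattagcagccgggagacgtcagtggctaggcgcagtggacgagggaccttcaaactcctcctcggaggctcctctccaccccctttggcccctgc
Slit2 held 3 GC boxes and a TATA box 28 bases before the start. Nrp2 held 5 GC boxes, with an overlapping pair on the other strand, Epha5 held 2, Nrp1 held 1 and Unc5c held none of the motifs. Sema6d, shown at the first of its annotated starts, had an E-box 23 bases before the start. Over all 58 members with sequence, 44 (75.9%) held a GC box, as did 53.4% of the genes on the array with a promoter in the table and 35.4% of all genes in it. An E-box was found in 4 members (6.9%), Epha8, Robo2, Sema4b and Sema6d, and in 8.73% of the array's genes. A TATA box was found in 2 members (3.45%), Efnb2 and Slit2, and in 10.5% of the array's genes. The median GC content was 64.4% in the members' promoters and 52.4% in all promoters of the table, which include those of genes not on the array. These matches describe letters in a window only.

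Values are log2 expression values, and every array was also read by quartile, where quartile 4 holds the brightest and quartile 1 the dimmest of 4 equal parts of the probe sets with 1 gene symbol on that array. The lower edge of quartile 4 lay between 8.93 and 9.10, and the upper edge of quartile 1 between 4.92 and 5.13. Each gene was read from its probe set of highest mean. Probe sets differ in how well they hybridize, so a quartile ranks signals and not amounts of transcript between genes. The 17 arrays had medians of 6.28 to 6.51, and no pair was a duplicate (highest correlation 0.994). The tumor mad562 stood lowest, with a median correlation of 0.978 with the others, against 0.984 for the next. The tissue label was borne out by the sympathoadrenal markers, since Phox2a, Hand2, Gata3, Th, Dbh and Chga were in quartile 4 in 17 of 17 tumors. Th, which makes catecholamines, had a mean of 13.09 ± 0.73 (SD, n = 17), and Chga, a protein of secretory granules, 12.59 ± 0.42. RNA of other tissues also differed between tumors. Skeletal muscle genes had a list mean of 6.70 or less in 14 tumors, and reached 9.90 in mad549, 10.78 in mad550 and 12.19 in mad553. Liver genes had a list mean of 5.59 or less except for mad559 (7.05) and mad562 (9.06). The adipose list ranged from 6.15 in mad554 to 8.68 in mad556 and 9.18 in mad548, and the macrophage list from 8.94 in mad558 to 11.05 in mad562.

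In these tumors 11 members were in quartile 4 in all 17 tumors, namely Slit2, Slit3, Sema3f, Sema6d, Plxna3, Plxnb1, Plxnb2, Nrp1, Nrp2, Efna5 and Efnb3. That is 15.9% of the members, and 28.2% of all genes were in quartile 4 throughout. At the other end 4 members (5.80%) were in quartile 1 in all tumors, Sema3d, Sema3e, Ephb6 and Plxna4os1, against 14% of all genes. The mean was at or above the mean array median for 47 members (68.1%) and for 61.7% of all genes. In bulk tumor RNA, fewer cells of a type and less RNA per cell cannot be told apart, and the cells that carry a transcript are not known.

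**Figure D1:**
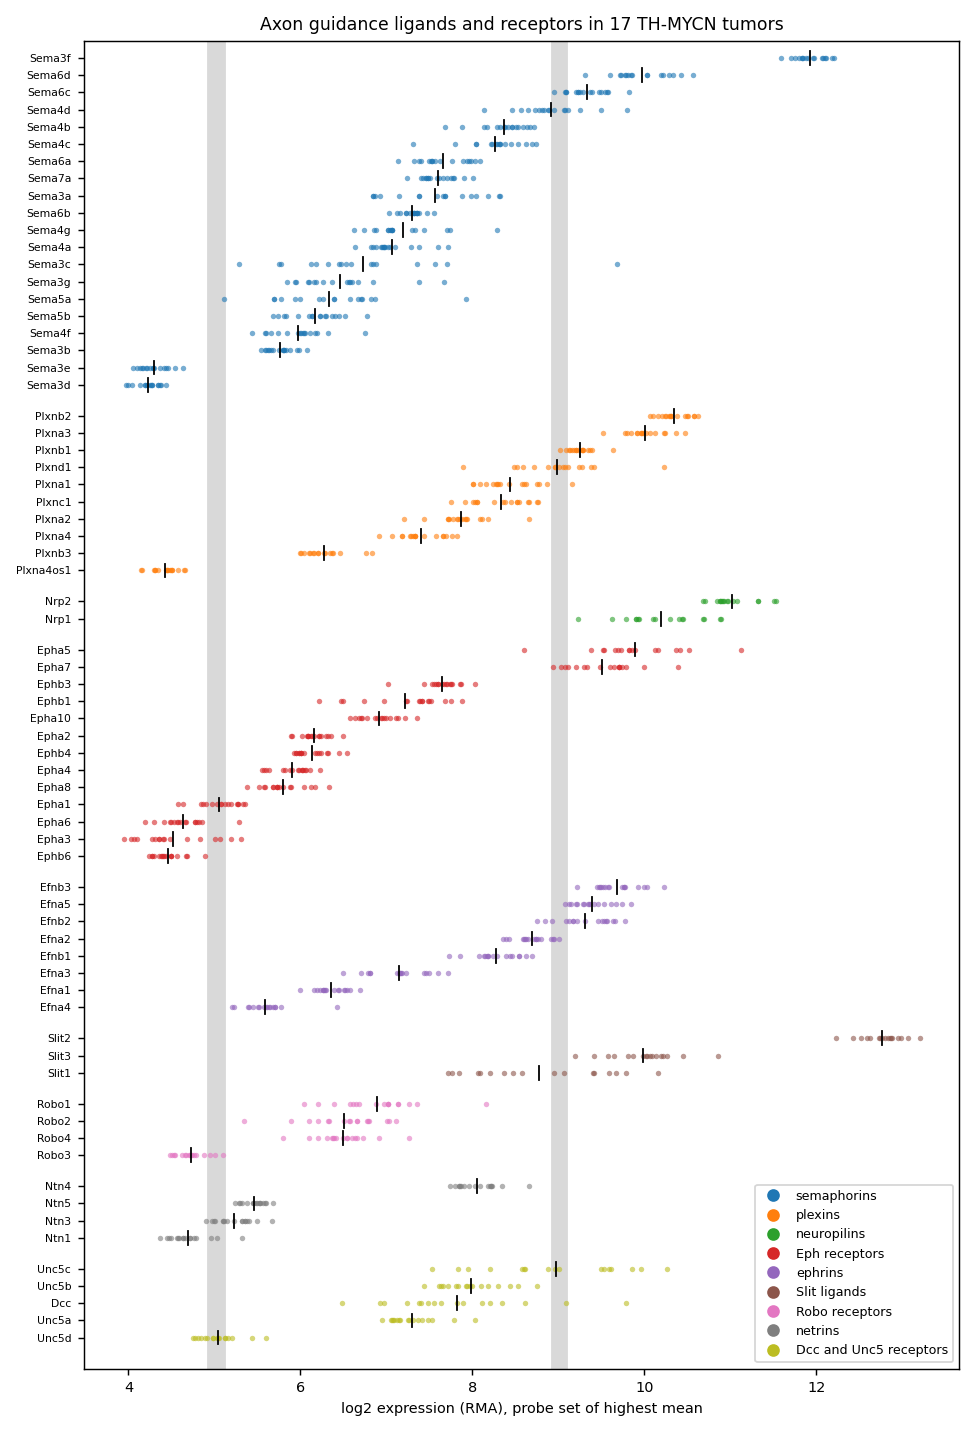
Log2 expression of the 69 members (rows, grouped and coloured by family) in 17 tumors, 1 point per tumor, with a black bar at the mean. Grey bands span the lower edge of quartile 4 (8.93 to 9.10) and the upper edge of quartile 1 (4.92 to 5.13) over the arrays, and 11 members lie in quartile 4 in every tumor.

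The Slit ligands are secreted repellents of axons, and Slit2 had the highest mean of the 69 members. It ranged from 12.22 in mad552 through a median of 12.80 to 13.20 in mad560, with a mean of 12.77 ± 0.24 (SD, n = 17), and in the median tumor it lay at the 98.5th percentile of the array. The tumors thus lay within a 1.97-fold range, and another Slit2 probe set was also in quartile 4 in 17 tumors while its remaining one was in quartile 4 in none. Slit3 ranged from 9.19 in mad551 to 10.85 in mad563, with a median of 10.03. Slit1 behaved otherwise and spread over 5.40-fold, from 7.72 in mad559 to 10.15 in mad560, with a median of 8.57, and was in quartile 4 in 7 tumors. Of the Robo family, which includes receptors of Slits, no member was in quartile 4 in any tumor. Robo1 ranged from 6.04 in mad554 to 8.16 in mad548, with a median of 6.97. Robo2 ranged from 5.35 to 7.12 around a median of 6.58, with its lowest value also in mad554. Robo4, the member of the family known from endothelial cells, had a mean of 6.49 ± 0.32, and Robo3, which acts in axons that cross the midline, was in quartile 1 in 16 tumors with a mean of 4.73 ± 0.18.

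The neuropilins, which hold class 3 semaphorins and also VEGF, were both in quartile 4 in every tumor. Nrp2 ranged from 10.68 in mad553 through 10.92 to 11.53 in mad560. Nrp1 ranged from 9.23 in mad549 through 10.12 to 10.90 in mad554, a 3.18-fold range. All 4 probe sets of Nrp1 had their lowest value in mad549, and the other 3 correlated with the one used at r = 0.85 to 0.94 over the 17 tumors, as a description of probe sets of 1 gene on the same arrays. Among the plexins, the signalling receptors, Plxnb2 (10.35 ± 0.17), Plxna3 (10.01 ± 0.23) and Plxnb1 (9.25 ± 0.14) were in quartile 4 in all tumors. The other probe set of Plxna3 (mean 7.43) was in quartile 4 in 0 tumors, and that of Plxnb1 (mean 9.03) in 8. Plxna1, Plxna2, Plxna4 and Plxnc1 had means of 7.40 to 8.44, and Plxnb3 had 6.28 ± 0.24. Plxnd1, a plexin of blood vessels and of developing neurons, was the plexin of largest spread, from 7.89 in mad558 through 9.01 to 10.23 in mad550, and was in quartile 4 in 8 tumors. Its highest tumor was among the 3 with skeletal muscle RNA and had the second highest endothelial list (8.12), whose part in this value was not tested.

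Semaphorins had means from 4.23 to 11.93. Among the 7 class 3 semaphorins, Sema3f, a ligand of neuropilin receptors, had a mean of 11.93 ± 0.18 and ranged from 11.59 to 12.21. That value rested on 1 probe set of a kind that may bind several transcripts (suffix _x_at), while the other probe sets of Sema3f had means of 6.65 and 5.96 and were in quartile 4 in no tumor. Sema3d (4.23 ± 0.13) and Sema3e (4.30 ± 0.16) were in quartile 1 in all 17. Sema3a, a repellent of sympathetic axons, ranged from 6.84 in mad551 through 7.66 to 8.32 in mad548, and Sema3g ranged from 5.85 to 7.67 around 6.36. Sema3b had a mean of 5.77 ± 0.15, and Sema3c is described with the variable members. The transmembrane class 6 held 4 members above the array median. Sema6d ranged from 9.31 in mad554 through 9.86 to 10.57 in mad565, although another of its 4 probe sets was in quartile 1 throughout, and Sema6c was in quartile 4 in 16 tumors. The other probe sets of Sema6c had means of 7.34 and 5.32 (r = 0.12 and 0.03 with the one used). The 6 genes of class 4 had means from 5.97 (Sema4f) to 8.91 (Sema4d), and Sema4d, which binds Plxnb1, was in quartile 4 in 6 tumors. Sema5a and Sema5b had means of 6.34 and 6.17, and Sema7a, a membrane-anchored semaphorin, had 7.60 ± 0.20. The other probe set of Sema7a had a mean of 4.52 (r = -0.44 with the one used).

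No Eph receptor was in quartile 4 in every tumor. Epha5 and Epha7, both receptors of A-type ephrins, came nearest with 16 of 17 tumors. The other probe sets of Epha5 were in quartile 4 in 12, 6 and 0 tumors, and those of Epha7 in 4, 0 and 0. Epha5 ranged from 8.61 in mad562 through 9.83 to 11.13 in mad563, and Epha7 from 8.93 in mad561 through 9.60 to 10.39 in mad554. The lowest Epha5 value was in the tumor of lowest array correlation and highest liver and macrophage lists, and all 4 of its probe sets were lowest there. Ephb1 ranged from 6.22 in mad548 to 7.87 in mad558 around 7.40, and Ephb3 had a mean of 7.65 ± 0.22. Epha1, Epha2, Epha4, Epha8, Epha10 and Ephb4 had means of 5.06 to 6.92. Epha3 (4.52 ± 0.42) was in quartile 1 in 14 tumors, Epha6 in 16 and Ephb6 in all 17. Of the ephrins 7 of 8 (87.5%) had means at or above the array median, and of the Eph receptors 5 of 13 (38.5%), against 61.7% of all genes. These counts describe signals of different probe sets, without a test. Efnb3 ranged from 9.22 in mad549 through 9.59 to 10.23 in mad560, and Efna5 from 9.08 through 9.36 to 9.84. The other probe set of Efna5 had a mean of 4.66 and was in quartile 1 in 16 tumors (r = 0.25 with the one used). Efnb2, the ephrin known from arterial endothelium, was in quartile 4 in 14 tumors with a mean of 9.31 ± 0.30. The brightest of its other probe sets had a mean of 7.67 (r = 0.83), and the dimmest (4.90) was in quartile 1 in 14 tumors. Efna2 (8.69 ± 0.20), Efnb1 (8.28 ± 0.26), Efna3 (7.15 ± 0.34), Efna1 (6.36 ± 0.18) and Efna4 (5.59 ± 0.27) were in quartile 4 in none.

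Netrins had the lowest median of means of the 9 families (5.35). Ntn1, the classical attractant for Dcc, was in quartile 1 in 15 of 17 tumors and ranged from 4.37 in mad558 through 4.63 to 5.33 in mad548. Ntn3 and Ntn5 had means of 5.23 and 5.46, and Ntn4, a basement membrane netrin, had 8.06 ± 0.24. The other probe set of Ntn4 had a mean of 5.03 (r = 0.07 with the one used). Dcc ranged from 6.49 in mad565 through 7.63 to 9.79 in mad563, a 9.87-fold range, and was in quartile 4 in 2 tumors. Unc5c, a receptor for the repellent action of netrin, ranged from 7.53 in mad549 through 8.96 to 10.27 in mad558 and was in quartile 4 in 8 tumors. Unc5a and Unc5b had means of 7.30 ± 0.28 and 7.99 ± 0.36, and Unc5d was in quartile 1 in 8 tumors at 5.04 ± 0.23.

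The members differed between tumors by a median SD of 0.26 on the log2 scale, against 0.19 for all genes. An SD of at least 0.5 was reached by 7 members (10.1%) and by 6.79% of all genes. They were Sema3c (SD 0.99), Dcc (0.82), Unc5c (0.80), Slit1 (0.79), Sema5a (0.63), Epha5 (0.55) and Sema3a (0.51), and Plxnd1 and Sema3g (both 0.50 after rounding) and Robo1 (0.49) lay just below. None of these was read from a probe set with the suffix _s_at or _x_at.

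**Figure D2:**
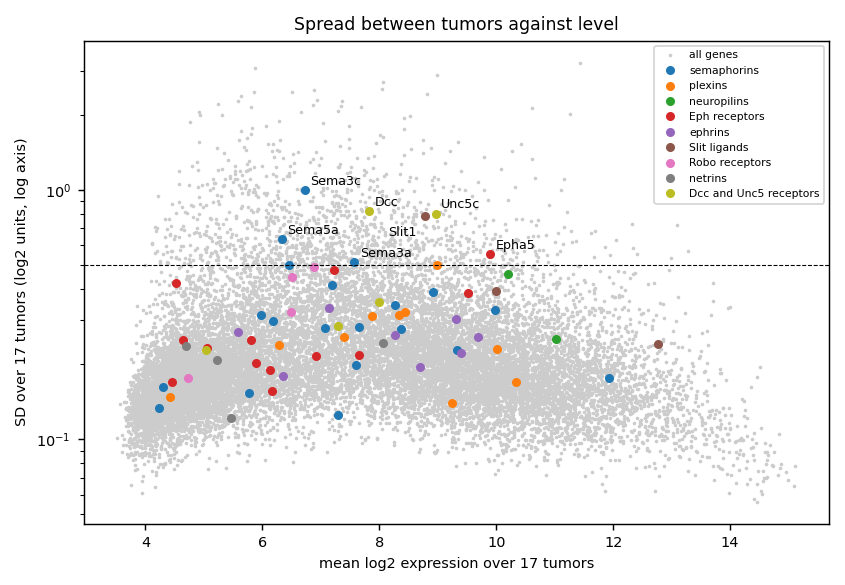
SD of log2 expression over 17 tumors (log axis) against mean log2 expression for 18194 genes (grey) and the 69 members (coloured by family). The dashed line is an SD of 0.5, and the 7 named members are at or above it.

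Sema3c, a secreted semaphorin that guides neural crest cells in the developing heart, reached 9.69 in mad553, while the next tumor, mad554, had 7.71, the median was 6.53 and the lowest, mad560, had 5.29. Without mad553 its SD was 0.66 in place of 0.99. The tumor mad553 also had the highest skeletal muscle list (12.19) and the highest fibroblast list (9.63), whereas mad550 and mad549, the other tumors with muscle RNA, had Sema3c values of 6.18 and 6.44. Its other probe set was in quartile 1 in all tumors. Dcc was highest in mad563 and next highest in mad555 (9.09), then mad558 (8.61), and the remaining 14 tumors lay at or below 8.35. Another probe set of Dcc followed the same order closely (r = 0.90) and the third one did not (r = -0.06).

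Unc5c and Slit1 did not depend on a single tumor, since without their highest tumor the SDs were 0.75 and 0.72. Unc5c was above 9 in 8 tumors and Slit1 in 7, with values spread between the extremes rather than in 2 separate sets in the plot by tumor. The second probe sets followed the first ones at r = 0.81 for Unc5c and r = 0.84 for Slit1. Sema5a, a semaphorin with thrombospondin repeats, ranged from 5.11 in mad565 to 7.93 in mad555, with the next highest at 6.87. Its other probe sets had means of 4.06 to 4.87 and were in quartile 1 in 11 to 17 tumors. The brightest of them followed the one used at r = 0.91. Epha5 and Sema3a fell below an SD of 0.5 without their highest tumor (0.46 and 0.49). The other probe sets of Sema3a had means of 4.07 and 4.82 and were in quartile 1 in 17 and 13 tumors (r = 0.66 and 0.63).

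**Figure D3:**
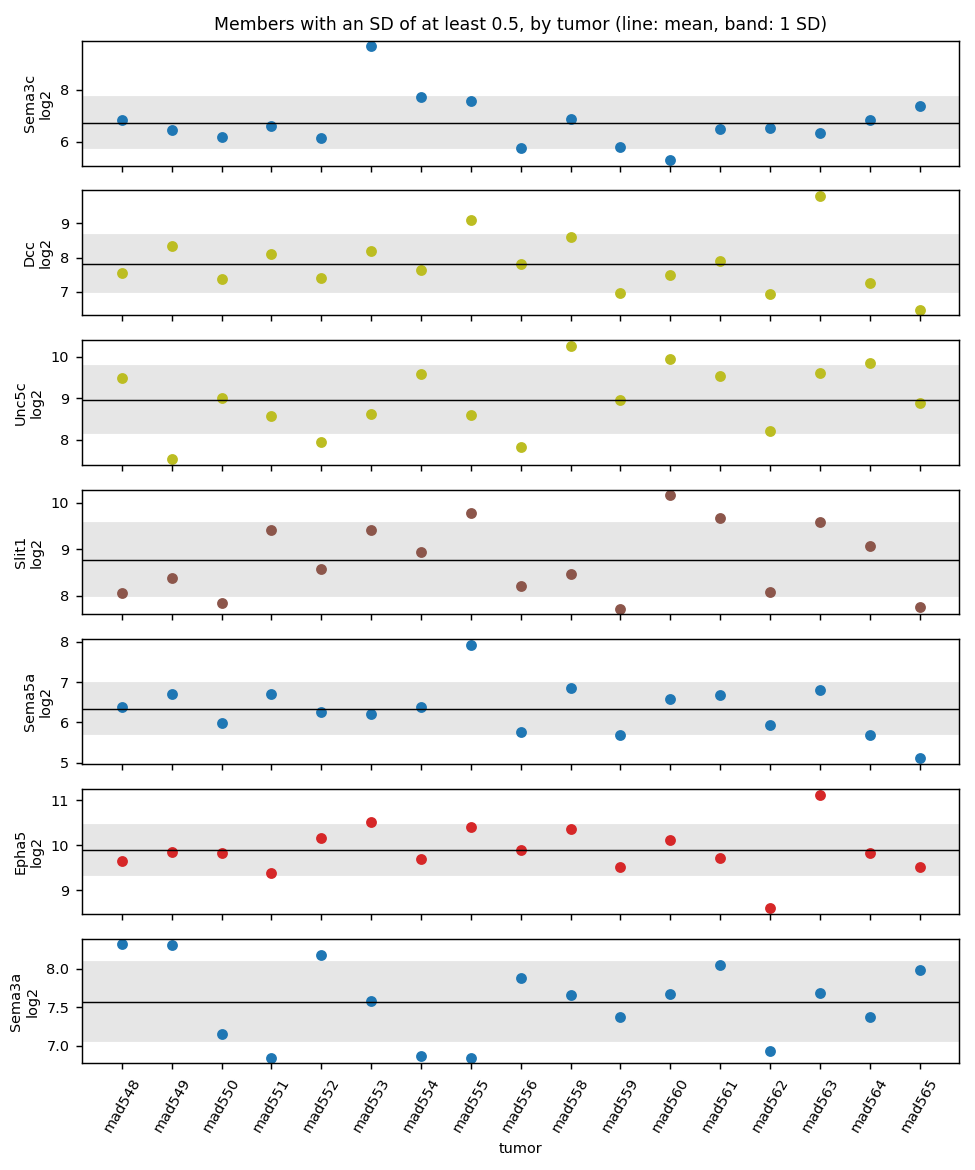
Log2 expression of the 7 members with an SD of at least 0.5, 1 point per tumor, with the mean (line) and 1 SD either side (grey band). Sema3c stands out in mad553 at 9.69, whereas Unc5c and Slit1 are spread over their ranges.

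The tumors in which members peaked were not evenly filled. In mad563, 16 members (23.2%) had their highest value, among them Dcc, Epha5, Slit3, Sema6c, Plxna3 and Plxnb2, while 14.4% of all genes peaked there. In mad560, 9 members (13%) peaked, among them Slit1, Slit2, Nrp2, Efnb3 and Plxna1, while 3.31% of all genes did. The members' share was also above that of all genes in mad550, mad551, mad553, mad558 and mad564 (4.35% to 5.80% against 1.69% to 4.66%) and below it in the other 10 tumors, among them mad549 (1.45% against 7.02%), mad554 (11.6% against 14.7%) and mad562 (4.35% against 10.04%). After each array was centred on its median the shares were 24.6% against 15.3% in mad563 and 15.9% against 4.99% in mad560. In mad558 (7.2% against 7.9%) and mad564 (4.3% against 4.7%) the members' share then lay below that of all genes. In mad548 (8.7% against 6.2%) and mad555 (4.3% against 3.2%) it then lay above. Before centring, mad559 and mad565 had the lowest value of 9 members each (13%), against 7.92% and 8.01% of all genes. After centring mad554 had the lowest value of the most members, 10 (14.5% against 8.8% of all genes). Then mad565 had 8 (11.6% against 4.5%) and mad559 had 7 (10.1% against 4.4%). Before centring, no member peaked in mad556 or mad561, where 2.68% and 1.91% of all genes did. The tumor mad563 had the lowest fibroblast list (7.74, median 8.88) and mad560 the highest sympathoadrenal list (11.94, median 11.65), and the part of these in the counts was not tested. No test was made of these shares, because genes of 1 array are not independent.

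**Figure D4:**
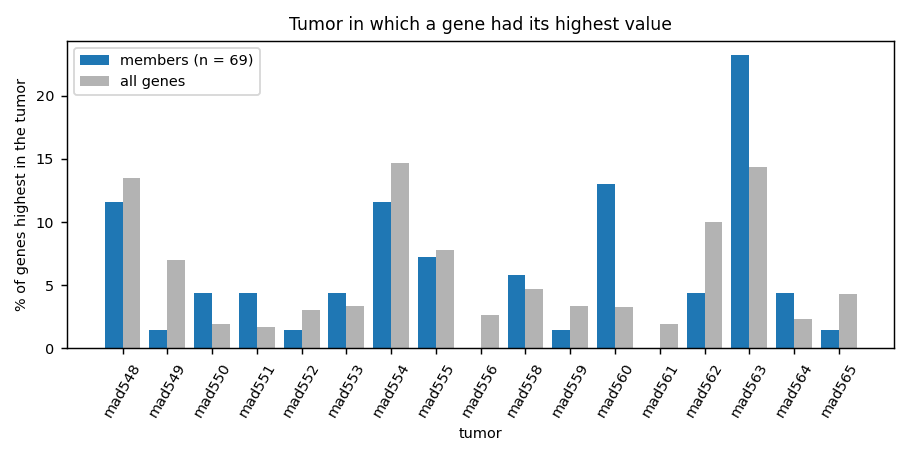
Percent of the 69 members (blue) and of all genes (grey) whose highest value was in each tumor, before arrays were centred. The gap is widest in mad560 (13% against 3.31%) and mad563 (23.2% against 14.4%), and in 10 of the 17 tumors the members' share is below that of all genes, as in mad549 (1.45% against 7.02%).

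The only relations the design allows are across tumors. For each gene the slope of its log2 value on the mean log2 value of a marker list was tested with limma, for 5 lists: endothelial, fibroblast, Schwann cell, sympathoadrenal and proliferation, none of which holds a member. Over 345 relations of members with lists no member passed a Benjamini-Hochberg adjusted p of 0.05 over all genes tested. Of all genes, 0.545% rose and 0.044% fell with the endothelial list past that threshold, 0.044% rose with the fibroblast list, 0.154% rose with the sympathoadrenal list, and 0.77% rose and 0.198% fell with the proliferation list, and none was called in the other directions or with the Schwann cell list. At an unadjusted limma p under 0.05, 18 members (26.1%) had a positive slope on the sympathoadrenal list, against 12.1% of all genes, and 1, Ephb3, a negative one, against 2.92%. On the proliferation list 10 members (14.5%) had a negative slope, against 4.71% of all genes, and 1, Robo1, a positive one, against 7.59%. For the endothelial list the counts were 4 positive and 3 negative (5.63% and 8.07% of all genes), for the fibroblast list 3 and 5 (4.87% and 3.95%), and for the Schwann cell list 5 and 0 (12.3% and 0.935%). The proliferation shares lay closer together when the 3 tumors with muscle RNA were left out. Negative slopes were then found for 15.9% of members and 10.2% of all genes, and positive ones for 1.45% and 3.32%.

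The 8 relations of lowest adjusted p, all above the threshold, were those of Efnb1, Sema3e, Slit1, Ephb6, Epha8 and Sema4d with the sympathoadrenal list, of Sema3g with the endothelial list and of Sema3f with the proliferation list. Efnb1, a B-type ephrin of neural crest cells, had a slope of 1.52 ± 0.34 (SE) on the sympathoadrenal list, with a limma adjusted p of 0.065. Its r was 0.76 (permutation p = 0.00044) and its rho 0.79 (permutation p = 0.00031), and r was 0.67 without the 2 tumors farthest from the list median. Slit1 had a slope of 4.16 ± 1.03 on the same list, with a limma adjusted p of 0.081, r = 0.69 (permutation p = 0.00232), rho = 0.67 (permutation p = 0.00406) and r = 0.66 without those tumors. When probe sets with the suffix _s_at or _x_at were left out, both passed with an adjusted p of 0.049, and 100 genes in place of 28 were called. Over the other alternatives the adjusted p ran from 0.054 to 0.39 for Efnb1 and from 0.071 to 0.38 for Slit1, with 0.35 and 0.28 after each array was centred on its median and the highest values without the 2 farthest tumors. Sema3e and Ephb6, both in quartile 1 in all 17 tumors, had limma adjusted p of 0.080 and 0.087, with r of 0.77 and 0.75, and without the 2 farthest tumors r was 0.63 and 0.50. The other probe sets of Sema3e did not follow the one used (r = -0.06 to 0.03). Epha8 and Sema4d had limma adjusted p of 0.095 and 0.099, and r without the 2 farthest tumors was 0.44 and 0.36. For Sema4d the other probe sets had r of 0.28 and -0.08 with the one used. Unc5a and Unc5c had limma adjusted p of 0.12 and 0.14 on the sympathoadrenal list, with r of 0.65 and 0.62. That list differed little between tumors, from 11.53 to 11.94, so its slopes cover a narrow range.

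Sema3g, a semaphorin of endothelial cells with its highest value in mad562, had a slope of 1.16 ± 0.28 on the endothelial list, with a limma adjusted p of 0.070, r = 0.70 (permutation p = 0.0022), rho = 0.70 (permutation p = 0.00263) and r = 0.60 without the 2 tumors farthest from the list median, mad562 and mad550. Efna1 had the next lowest limma adjusted p on that list (0.20), with a slope of 0.37 ± 0.13. Robo4 and Efnb2, both known from vessels, had slopes of 0.58 ± 0.22 and 0.52 ± 0.21, with adjusted p of 0.25 and 0.29. Ntn5 and Ephb6 had negative slopes of -0.25 ± 0.10 and -0.31 ± 0.13, with adjusted p of 0.28 and 0.30. Plxnd1 had r = 0.45 with all tumors and r = -0.004 without mad562 and mad550, and Nrp1 had r = 0.09 with all tumors. On the proliferation list Sema3f had a slope of -0.95 ± 0.25, with an adjusted p of 0.088, r = -0.72 (permutation p = 0.00098) and rho = -0.72 (permutation p = 0.00188), from the single _x_at probe set named above. Sema3c had r = -0.62 with that list, with an adjusted p of 0.13, and r = -0.04 without mad553 and mad554, so that relation rested on these tumors.

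**Figure D5:**
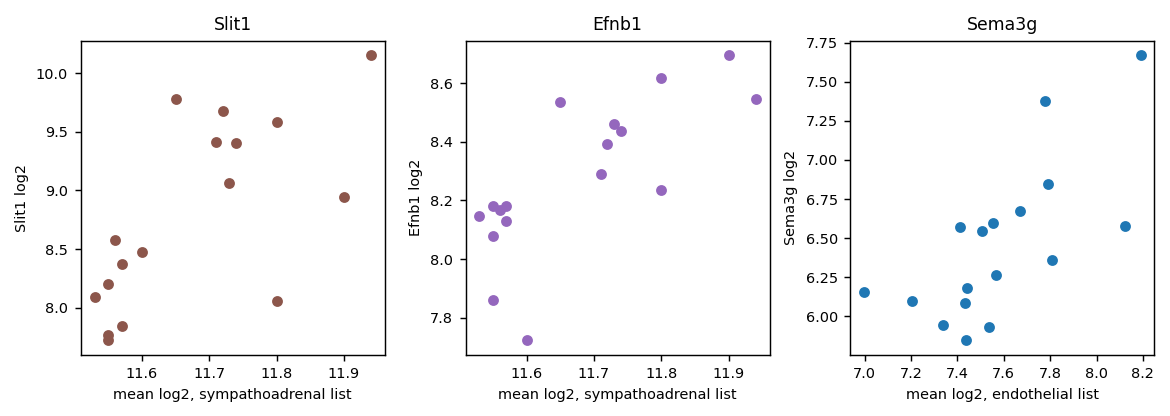
Log2 expression of Slit1 and Efnb1 against the mean log2 value of the sympathoadrenal list, and of Sema3g against that of the endothelial list, 1 point per tumor (n = 17). Pearson r was 0.69, 0.76 and 0.70, and no slope passed the adjusted threshold over all genes.

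For the 4 variable members with the largest SD, the genes outside the families with the most similar pattern over the 17 tumors were named by Pearson r, as a description without a p. Dcc was followed most closely by Kcnd2 (r = 0.92), a potassium channel, Tenm2 (0.91), a teneurin of synapses, and Gramd4 (0.90). Slit1 was followed by Fxyd7 (0.83), Cend1 (0.83) and Dbh (0.82), the enzyme that makes noradrenaline and 1 of the genes of the sympathoadrenal list. Unc5c was followed by Terb1 (0.79), Banf2 (0.78) and Gm16982 (0.76), with SDs of at most 0.18. Sema3c was followed by Cds2 (0.87), Phkg1 (0.80) and Prkcq (0.80), each highest in mad553, and the rho of Phkg1 was only 0.47.

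Other guidance genes were read from lists of the wider pathway. Of 25 other cues and receptors, 5 were in quartile 4 in all tumors (20%, against 28.2% of all genes). They were Neo1, a relative of Dcc, Ryk, Fzd3, Celsr3 and L1cam. In quartile 1 throughout were 2 (8%, against 14% of all genes), Rgma and Wnt5a. The largest SDs were those of Cxcl12 (0.80), a chemokine, highest in mad562 at 9.15, and Chl1 (0.67), an adhesion molecule, highest in mad555 at 6.74. Of 38 measured genes that carry guidance signals inside the cell, 17 (44.7%) were in quartile 4 throughout, against 28.2% of all genes. Among them were Dpysl2 and Crmp1, mediators of semaphorin signalling, and Rac1, Cdc42 and Cfl1, regulators of actin. Dpysl4 (SD 0.88) and Fes (0.55) differed most. Of both lists 1 gene passed the limma test, Dpysl3, which rose with the sympathoadrenal list (slope 2.45, adjusted p 0.032) and ranged from 10.61 in mad549 through 11.21 to 11.99 in mad563. Its adjusted p was above the threshold at 0.24 with centred arrays, 0.072 with scaled list genes, 0.077 without the 3 tumors with muscle RNA and 0.39 without the 2 farthest tumors.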

How the data were processed

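RNA of 17 tumors was extracted with Trizol, amplified and hybridized to Affymetrix whole-genome mouse arrays, 1 per tumor. The deposited values are log2 expression values, 1 per probe set and tumor, which the authors obtained by RMA, a method that subtracts background, gives all arrays 1 distribution and summarises the probes of a set. The labels list Partek 6.4 beside RMA, and the study's methods section instead names MAS5. RMA compresses differences of dim probe sets, and the number of arrays limits the precision. Of 45101 probe sets, 64 were controls, 932 carried several symbols in the platform annotation and 9147 were unnamed, and genes were named from the 34958 with 1 symbol. The value of a gene is that of its probe set of highest mean. The 69 members had 152 probe sets, and for the 45 members with several the highest and lowest differed by a median of 2.28 on the log2 scale.

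Members and gene lists were chosen with earlier results of these data known. Genes named in the text are all members that the family, SD and list rules pick, the other members by value or range, the 3 genes most alike to 4 variable members, and the genes of largest SD or past the threshold in the wider lists. Other genes named as quartile 4 or 1 were named after their values were seen. Slopes were tested with limma 3.58.1 in R 4.3.3 (Benjamini-Hochberg over all genes, threshold 0.05, list genes left out), and r and rho with 100000 two-sided permutations (seed 1). On simulated slopes on the endothelial list over 18194 genes, 84 of 100 slopes of 1, 23 of 100 slopes of 0.5 and 5 of 17994 slopes of 0 were called. These rates hold for that list only, which had an SD of 0.30 over the tumors, and for normal noise drawn independently for each gene. Genes of real arrays are not independent, so the rates may differ there. The sympathoadrenal, proliferation and Schwann cell lists had smaller SDs of 0.13, 0.13 and 0.10, and slopes on them were not simulated. Python 3.11.15, NumPy 2.4.6, pandas 2.3.3, SciPy 1.17.1 and Matplotlib 3.10.9 were used. Alternatives covered the choice of probe sets, centring of arrays, a filter on dim probe sets, the list score, the measure of spread, the quartile limits and leaving out tumors. Raw probe intensities were not used here.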

Additional observations from a re-analysis of the deposited data

How the results depend on the processing

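In 39 of 40 alternative settings of the list relations no member passed, as in the count reported, which says nothing of how single slopes moved. Of 9 settings for the SD and quartile counts, 8 gave a count within 1.5 times that reported. Without probe sets ending in _s_at or _x_at, 2 members, Efnb1 and Slit1, passed with the sympathoadrenal list in place of 0. With the mean of all probe sets of a gene, 4 members in place of 7 had an SD of at least 0.5 (Dcc, Sema3c, Slit1 and Unc5c), and in the other settings 6 to 8 did. Members in quartile 4 throughout numbered 14 with limits from all non-control probe sets (all 11 shared with those reported), 12 without _s_at or _x_at probe sets (10 shared, without Sema3f) and 8 by a mean quartile of at least 3.5 (all shared). Without its highest tumor, a setting chosen after seeing the data, the SD of Sema3c was 0.66 in place of 0.99. The share of members with a positive sympathoadrenal slope at an unadjusted p under 0.05 was 18.8% after centring (5.65% of all genes) and 14.5% without the 2 farthest tumors (7.03%). The share with a negative proliferation slope was 10.1% after centring (2.77% of all genes) and 8.7% without the 2 farthest tumors (3.11%). Without the 3 tumors with muscle RNA it was 15.9% (10.2%). The number of all genes past the adjusted threshold ran over the settings from 0 to 153 (107 reported) for the endothelial list, 0 to 12 (8) for fibroblasts, 0 to 11 (0) for Schwann cells, 0 to 100 (28) for the sympathoadrenal list and 0 to 661 (176) for proliferation. The cause of these changes was not tested. No paired analysis was possible because all tumors belong to 1 group. Dim probe sets in quartile 1 lie near the floor of the array and carry little information on differences.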
